A study of Mus musculus with 9 samples.

Results

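Matricellular proteins are secreted into the extracellular matrix but act mainly on cells, through integrins, syndecans and other receptors, rather than as structural scaffold. In the heart they are kept low in the adult and are known for their return after injury, when fibroblasts become activated and a scar forms. The genes described here are 10 of the 32285 genes counted in mouse cardiac nuclei: the matricellular genes Tnc, Thbs1, Sparc, Postn, Spp1, Ccn1 and Ccn2, the matrix scaffold gene Fn1, and the scar genes Lox and Cthrc1. They were listed by name, with earlier results of these data known, and all 10 had counts. The question asked of each is which cell class held its transcripts 24 h after reperfusion, and how its level in that class compared between groups.

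The hearts came from male wild-type mice aged 9 to 10 weeks, and each group had 3 libraries, labelled as separate replicates. NS-Sham mice had thoracic surgery without coronary occlusion and received normal saline (NS). NS-I/R mice received saline and had the left anterior descending coronary artery occluded for 45 min, followed by 24 h of reperfusion (I/R, ischemia and reperfusion). Enpa-I/R mice had the same occlusion and received enpatoran, a small-molecule antagonist of Toll-like receptor 7, at 5 mg/kg in each of 2 intraperitoneal injections, the first 1 h before occlusion. No sham group received enpatoran, so its effect without injury is not part of the design. The effect of I/R and the effect of enpatoran are both read against the same 3 NS-I/R libraries, so the contrasts are not independent. The groups are called sham, saline I/R and enpatoran I/R below, and the figures carry the labels. Each library was made from powdered frozen tissue, so it does not separate the infarct from the remote heart. Nuclei carry mainly nuclear RNA, free RNA was captured with them, and protein was not measured.

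The 9 libraries held 19651794 to 38970153 unique molecular identifiers each (UMIs, which count captured transcripts) in 56766 barcodes, of which 41979 nuclei were kept. They formed 27 clusters, each of which could be assigned by marker genes to one of 14 classes, written "-like" because no deposited annotation was used. The 10 genes were left out of the clustering, but genes that go with them were not. The clusters are therefore not independent of the 10 genes, and neither are levels by cluster or fits without a cluster. Fibroblast-like nuclei made up 2755, 3252 and 2636 of the nuclei in sham, saline I/R and enpatoran I/R, and each of their 4 clusters expressed 7 or 8 of the 9 fibroblast markers above the other nuclei. The clusters that filled a class differed between groups: cluster 8 held 73.2% of the fibroblast-like nuclei in sham, whereas cluster 17 held 0.254% there, 43.8% in saline I/R and 31.9% in enpatoran I/R. Macrophage-like nuclei lay 95.3% in cluster 11 in sham. Clusters 11 and 12 held 48.4% and 51.6% of them in saline I/R, and 62.6% and 37.4% in enpatoran I/R. Cluster 2 held 60.4% of the cardiomyocyte-like nuclei in sham, and cluster 21 held 64.2% of them in saline I/R and 35.9% in enpatoran I/R. Cluster 3 held 59.8% of the blood endothelial-like nuclei in sham, and cluster 4, the leading one in saline I/R, held 35.2% of them there. Saline I/R replicate 3 stood apart from the other saline I/R hearts for several of the 10 genes, so results that turn on it are given with and without it. Levels are given as CPM, the count of a gene per 1000000 UMIs of its class, and as UMIs per nucleus.

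Promoter sequences from RefSeq (assembly GRCm38.p6) were at hand for 5 of the 10 genes, namely Ccn1, Postn, Sparc, Spp1 and Tnc, as the 250 bases before an annotated start. Of these, the promoters of Ccn1, Spp1 and Tnc are printed because the 3 genes had their highest mean level in saline I/R in different cell classes: cardiomyocyte-like, macrophage-like and fibroblast-like nuclei. Capitals mark matches to 4 motifs searched on both strands, none overlapping another: the TEAD core GGAATG, the AP-1 element TGANTCA, the CArG box, and the SMAD element GTCTG.
Ccn1, chr3:145649986-145650235, minus strand: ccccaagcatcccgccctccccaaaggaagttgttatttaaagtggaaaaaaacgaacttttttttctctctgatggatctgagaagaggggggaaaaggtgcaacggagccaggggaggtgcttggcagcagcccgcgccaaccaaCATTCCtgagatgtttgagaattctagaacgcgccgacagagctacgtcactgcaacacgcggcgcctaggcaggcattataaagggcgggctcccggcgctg
Spp1, first start, chr5:104434861-104435110, plus strand: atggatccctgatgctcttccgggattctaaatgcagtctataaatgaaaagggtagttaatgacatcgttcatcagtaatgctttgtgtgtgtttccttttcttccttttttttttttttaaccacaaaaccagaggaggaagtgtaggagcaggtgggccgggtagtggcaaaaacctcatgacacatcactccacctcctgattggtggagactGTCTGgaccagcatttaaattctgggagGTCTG
Tnc, first start, chr4:64047016-64047265, minus strand: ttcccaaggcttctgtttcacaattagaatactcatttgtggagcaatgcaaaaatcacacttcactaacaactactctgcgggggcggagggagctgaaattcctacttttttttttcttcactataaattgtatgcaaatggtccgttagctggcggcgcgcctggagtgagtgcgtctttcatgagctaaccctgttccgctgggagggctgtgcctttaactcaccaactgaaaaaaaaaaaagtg
The Ccn1 promoter held 1 TEAD core, on the opposite strand, 103 to 98 bases before the start. The Spp1 promoter held 2 SMAD elements, 33 to 29 and 5 to 1 bases before the start, and the first Tnc start had no match. The second annotated starts, not printed, held 1 SMAD element each, at 70 to 66 bases before the start for Tnc and at 41 to 37, on the opposite strand, for Spp1. Among 32536 distinct promoters of that length, 12.6% held a TEAD core, 6.73% an AP-1 element, 1.48% a CArG box and 42.2% a SMAD element. A SMAD match is therefore common, and a match describes letters in a window only. The first Postn start and the single Sparc start had 1 SMAD element each, at 191 to 187 and 35 to 31 bases before the start.

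In fibroblast-like nuclei, 9 of the 10 genes were higher in saline I/R than in sham, and Sparc was the exception (edgeR quasi-likelihood test with Benjamini-Hochberg adjustment over 13426 genes, adjusted p under 0.05). The background for this count was 46.5% of all tested genes called in that comparison and 23.3% called higher. The median log2 fold change of the 10 genes was 2.06, against -0.01 over all genes tested. Summed marker levels of other cell types also differed between the groups in these nuclei. The summed level of 7 neutrophil markers was 3.44 to 3.86 CPM in sham, with up to 2 of the 7 at 0 in a library, 70.3 to 185 CPM in saline I/R and 32.4 to 38.2 CPM in enpatoran I/R. The summed level of 9 macrophage markers was 26.4 to 53.6, 65.8 to 82.7 and 41.7 to 65.9 CPM in the same order, that of 9 cardiomyocyte markers 2900.4 to 3500.5, 1348 to 1549 and 1609 to 2149.8 CPM, and that of the 9 fibroblast markers 8334 to 9301, 4360.2 to 5589 and 5824 to 6932 CPM. The part of these markers' sources in the fibroblast-like results was not tested.

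**Figure D1:**
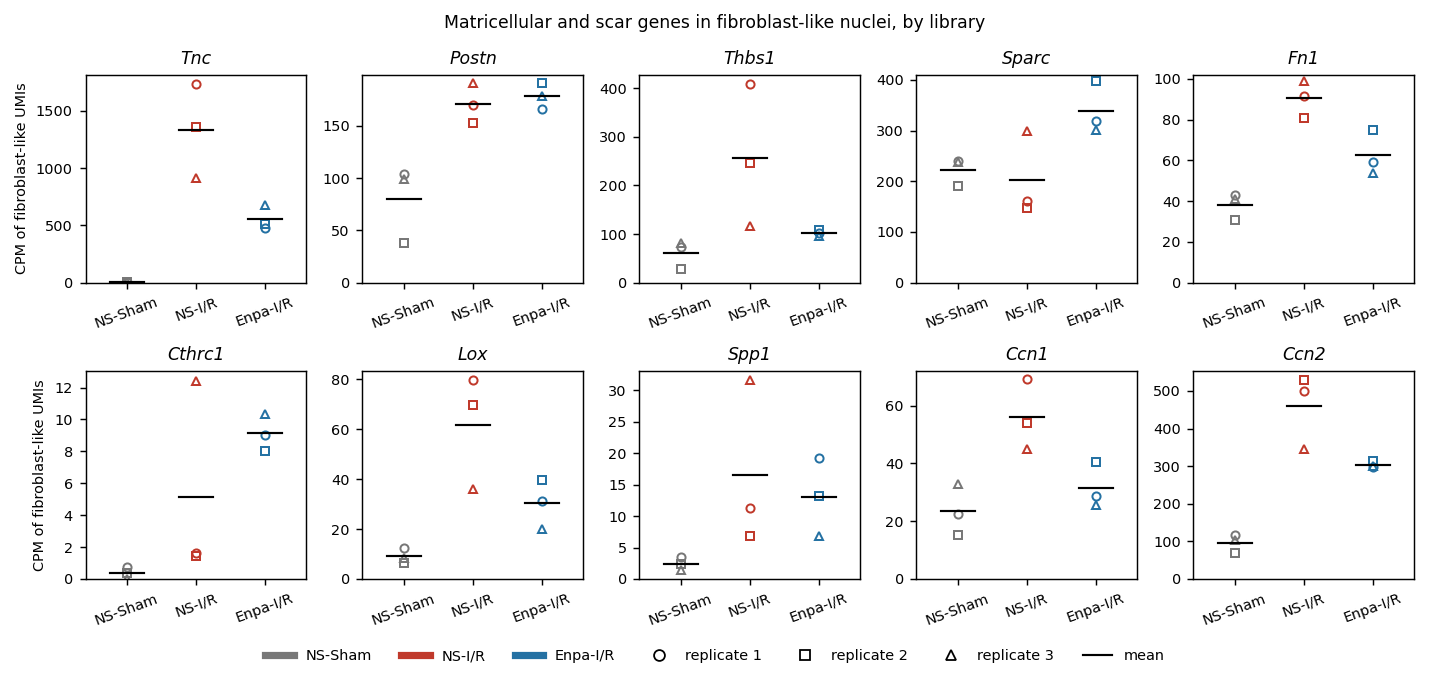
Level of each of the 10 genes in fibroblast-like nuclei, in CPM, by group; each symbol is 1 library (its shape is the replicate number) and the line is the mean of 3 libraries. The axis of each panel starts at 0. Tnc ran from 3.14 to 6.12 CPM in sham and from 912 to 1731 CPM in saline I/R, while the Sparc groups overlapped.

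Tnc (ENSMUSG00000028364, chromosome 4, 63959785 to 64047015, minus strand, GRCm38) encodes tenascin-C, a large glycoprotein that loosens cell adhesion and is a classic marker of injured myocardium. In fibroblast-like nuclei it stood at 6.12, 3.14 and 3.86 CPM in sham, 1731, 1355 and 912 CPM in saline I/R and 477, 510.1 and 678 CPM in enpatoran I/R. These levels rest on 16, 17 and 8 UMIs, 6466, 5685 and 4186 UMIs and 2064, 1656 and 2289 UMIs. The 3 groups did not overlap: every I/R library lay far above every sham library, and each saline I/R library above each enpatoran library. Tnc rose after I/R by 8.17 ± 0.35 on the log2 scale (edgeR, adjusted p = 2.45e-07). It was lower in enpatoran I/R than in saline I/R by a log2 difference of -1.25 ± 0.23 (edgeR, adjusted p = 0.0143). This second call was lost in 5 of the 9 fits that left out 1 library (without saline I/R replicate 1 or 2, or any 1 enpatoran I/R replicate) at adjusted p of 0.0507 to 0.0723, and the log2 difference stayed between -1.46 and -0.99 in all 9.

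Most Tnc transcripts lay in fibroblast-like nuclei after I/R. In saline I/R they held 86.0% of the Tnc UMIs of all nuclei, as a mean over libraries, at 5.02 UMIs per nucleus and 1332 ± 409.6 CPM (mean ± SD, n = 3). The next classes by level were Schwann-like nuclei at 479.9 ± 524 CPM, T and NK lymphocyte-like nuclei at 432 ± 638 CPM and lymphatic endothelial-like nuclei at 374 ± 246 CPM. All 3 are small classes whose libraries differed widely, and single Schwann-like and lymphocyte-like libraries overlapped the fibroblast-like ones. The lymphocyte-like level rested on few nuclei, since 97, 0 and 22 UMIs came from the 3 libraries and, after thinning to 1000 UMIs, only 2, 0 and 2 nuclei had one. Below them came pericyte-like nuclei at 157 ± 61.3 CPM, neutrophil-like at 98.5 ± 9.21 CPM and blood endothelial-like at 96.0 ± 34.7 CPM, each overlapping its neighbour. Smooth muscle-like, epicardial-like, macrophage-like, endocardial-like and B lymphocyte-like nuclei followed with means of 23.4 to 53.1 CPM, and cardiomyocyte-like nuclei were lowest at 8.69 ± 3.29 CPM. B lymphocyte-like nuclei, a class not known to make tenascin-C, held 0.0449 UMIs per nucleus (4 in 89 nuclei), a measure of free RNA. Classes at or near 23.4 CPM cannot be told apart from that background.

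Tnc also rose in 6 other tested classes, with log2 fold changes of 6.32 in pericyte-like, 5.58 in macrophage-like, 4.89 in endocardial-like, 4.67 in blood endothelial-like, 3.51 in cardiomyocyte-like and 3.37 in lymphatic endothelial-like nuclei (edgeR, adjusted p of 3.95e-06 to 0.00528). Sham counts were at the floor in some: Tnc UMIs in macrophage-like nuclei were 1 in sham and 107 in saline I/R, a ratio of CPM of 64.2 with a 95% counting interval of 11.3 to 2558. The background moved as well, from 0 Tnc UMIs in 105 B lymphocyte-like nuclei of sham to 4 in 89 of saline I/R. Its part in these rises was not tested. The rise in fibroblast-like nuclei exceeded that in blood endothelial-like nuclei by 3.48 ± 0.82 on the log2 scale (edgeR interaction, adjusted p = 0.00802) and that in cardiomyocyte-like nuclei by 4.90 ± 0.83 (adjusted p = 0.00107). Without sham replicate 2 these values were 2.38 (adjusted p = 0.280) and 1.99 (adjusted p = 0.494). That library held 1.54 CPM of Tnc in cardiomyocyte-like nuclei against 0.117 and 0.124 CPM in the other shams, and the rise in endocardial-like nuclei was 4.05 without it (adjusted p = 0.0518). In blood endothelial-like nuclei the Tnc levels were 2.78, 5.12 and 1.05 CPM in sham, 87.8, 66.2 and 134 CPM in saline I/R and 26.7, 50.2 and 37.5 CPM in enpatoran I/R. Within the class, cluster 7 held 317, 172 and 429 CPM in the 3 saline I/R libraries.

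Within fibroblast-like nuclei, Tnc was concentrated in cluster 17. The other genes leading this cluster were Adam12, Bnc2, Col8a1 and Gpr39, none of the 9 fibroblast markers was among its top 10 genes by fold, and 7 of the 9 were above the other nuclei. Its saline I/R libraries held 3909, 3062 and 1650.0 CPM of Tnc, and its enpatoran I/R libraries 1132, 1156 and 1628 CPM. Clusters 8, 9 and 10 lay between 13.4 and 41.1 CPM in saline I/R. Tnc nevertheless rose after I/R within cluster 8 by a log2 fold change of 4.51 (edgeR within the cluster, adjusted p = 0.00300) and within cluster 9 by 2.59 (adjusted p = 0.0199), the cluster whose background was 16.8% of genes called, against 15.8% in cluster 8. The difference between enpatoran I/R and saline I/R within cluster 17 was -1.15 (adjusted p = 0.0886), and without cluster 17 the class-wide difference was -0.08 (adjusted p = 0.892). After each nucleus was thinned to 1000 UMIs, a Tnc UMI was found in 0.370% of fibroblast-like nuclei in sham, 23.2% in saline I/R and 12% in enpatoran I/R, as means over 3 libraries. The unthinned shares were 1.04%, 30.9% and 19.1%, and in B lymphocyte-like nuclei of saline I/R the share was 1.11% thinned and 3.42% unthinned. The median nucleus held 1451 to 1684 UMIs in the B lymphocyte-like and 3140.0 to 3273.5 UMIs in the fibroblast-like class of the saline I/R libraries. Both differences in share gave an exact two-sided permutation p of 0.1, the smallest that 3 against 3 libraries allow, and 0.182 after adjustment over the 40 shares tested.

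**Figure D2:**
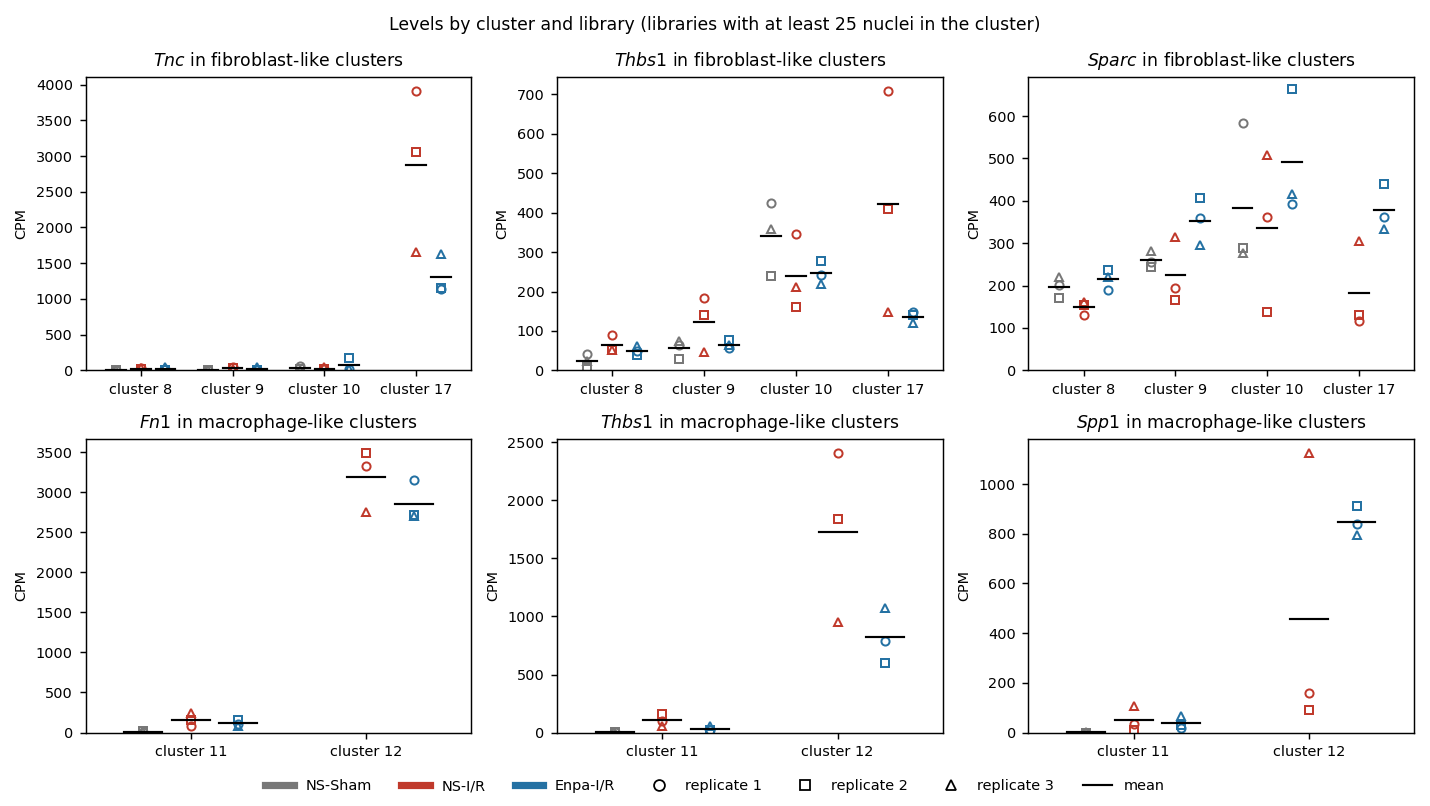
Levels within classes, in CPM of a cluster and library, for libraries with at least 25 nuclei in the cluster: Tnc, Thbs1 and Sparc in fibroblast-like clusters 8, 9, 10 and 17, and Fn1, Thbs1 and Spp1 in macrophage-like clusters 11 and 12. Each point is 1 library, coloured by group. Among the fibroblast-like clusters Tnc is high in cluster 17 only, and Fn1 and Thbs1 of the I/R hearts are higher in cluster 12 than in cluster 11 in every library.

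Thbs1 (ENSMUSG00000040152, chromosome 2, 118111876 to 118127133, plus strand, GRCm38) encodes thrombospondin-1, which inhibits angiogenesis and activates latent TGF-beta. After I/R its highest level was in macrophage-like nuclei, at 3.14, 4.67 and 0 CPM in sham, 1205, 952 and 609 CPM in saline I/R and 318, 251 and 439.9 CPM in enpatoran I/R. Fibroblast-like nuclei had 73.0, 26.9 and 82.1 CPM, 409, 247 and 116 CPM and 103, 109 and 95.9 CPM in the same order. In both classes all saline I/R libraries lay above all sham and all enpatoran libraries. The macrophage-like class went from 2, 5 and 0 UMIs in the sham libraries to 1411, 1003 and 775 in saline I/R, a log2 fold change of 8.01 ± 0.44 (edgeR, adjusted p = 9.05e-09). The fibroblast-like rise was 1.99 ± 0.44 (adjusted p = 0.00295). The difference between these 2 rises was -6.04 ± 0.47 (edgeR interaction, adjusted p = 1.45e-08), with the smaller fold in the fibroblast-like class, which started from the higher sham level.

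In sham, fibroblast-like nuclei held 76.3% of the Thbs1 UMIs, and smooth muscle-like nuclei had an overlapping level (84.5 ± 61.2 against 60.7 ± 29.6 CPM). In saline I/R the macrophage-like share was 37.1% and the fibroblast-like share 34.4%, with 2.29 and 0.953 UMIs per nucleus. The macrophage-like level of 922 ± 299 CPM did not overlap the next class. Neutrophil-like nuclei at 289 ± 116 CPM, fibroblast-like at 258 ± 147 CPM, lymphatic endothelial-like at 187 ± 44.1 CPM and smooth muscle-like at 183 ± 36.6 CPM followed, each overlapping the next. T and NK lymphocyte-like nuclei had 168 ± 40.1 CPM, epicardial-like 131 ± 77.6 CPM, pericyte-like 119 ± 55.6 CPM, blood endothelial-like 65.0 ± 43.5 CPM, endocardial-like 34.7 ± 1.95 CPM, Schwann-like 15.3 ± 12.7 CPM and cardiomyocyte-like 13.5 ± 4.65 CPM. The B lymphocyte-like level of 70.5 ± 28.9 CPM, or 0.135 UMIs per nucleus, is the background against which these lower classes stand. Thbs1 was also called higher by 5.13 in blood endothelial-like, 5.15 in pericyte-like, 4.56 in cardiomyocyte-like, 3.70 in lymphatic-like and 2.63 in endocardial-like nuclei on the log2 scale (edgeR, adjusted p of 6.99e-07 to 0.00148). The background rose too, from 0 UMIs in 105 B lymphocyte-like nuclei of sham to 12 in 89 of saline I/R. That is a ratio of CPM of at least 4.72, and its part in these rises was not tested. The fibroblast-like rise was smaller than the blood endothelial-like rise by a difference of -2.95 ± 0.37 (adjusted p = 5.63e-05) and than the cardiomyocyte-like rise by -2.45 ± 0.47 (adjusted p = 0.00242).

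Within macrophage-like nuclei, F13a1 led both cluster 11 and cluster 12, and Arg1 and Msr1 were among the leading genes of cluster 12 only. Thbs1 lay mostly in cluster 12, with 2407, 1837 and 952 CPM in the saline I/R libraries, against 100.001, 158 and 55.4 CPM in cluster 11. In every saline I/R library cluster 12 was the higher. Within fibroblast-like nuclei of saline I/R, cluster 17 had 709, 409 and 149 CPM, and cluster 10 had 345, 160.3 and 211 CPM. Cluster 10 was also the highest in sham, at 426, 240.0 and 359 CPM, so that its own groups overlapped. Among thinned fibroblast-like nuclei of the 3 saline I/R libraries, those with a Tnc UMI held 0.907, 0.546 and 0.21 Thbs1 UMIs per nucleus, and those without held 0.281, 0.143 and 0.087. Macrophage-like nuclei with an Fn1 UMI held 2.68, 1.74 and 1.13 Thbs1 UMIs, against 0.276, 0.272 and 0.322 in those without. In all 3 libraries, then, Thbs1 was higher in the Tnc-positive fibroblast-like and in the Fn1-positive macrophage-like nuclei.

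Sparc (ENSMUSG00000018593, chromosome 11, 55394500 to 55423183, minus strand, GRCm38) encodes osteonectin, a collagen-binding protein needed for the assembly of mature collagen fibres. It was the one gene of the 10 with no called difference after I/R in fibroblast-like nuclei. Its levels there were 240.0, 190.1 and 239 CPM in sham, 161, 147 and 299 CPM in saline I/R and 319.6, 398 and 300.5 CPM in enpatoran I/R. Saline I/R replicate 3 lay above all sham libraries and the other 2 below them. The log2 fold change after I/R was -0.29 ± 0.22 (edgeR, adjusted p = 0.315). Without saline I/R replicate 3 it was -0.67 (adjusted p = 7.02e-04), which would be a fall. The enpatoran I/R level exceeded the saline I/R level by 0.77 ± 0.22 (adjusted p = 0.0512), which did not pass, and by 1.15 without that library (adjusted p = 1.81e-05). Within cluster 17 the saline I/R libraries held 115, 130.2 and 304 CPM and the enpatoran I/R libraries 362, 440.5 and 334 CPM, and within cluster 8 Sparc fell after I/R by 0.48 on the log2 scale (edgeR within the cluster, adjusted p = 0.0437).

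By level, pericyte-like nuclei led for Sparc after I/R with 429.7 ± 48.9 CPM in saline I/R, followed by epicardial-like (372 ± 260.0 CPM), blood endothelial-like (252 ± 43.2 CPM), smooth muscle-like (219.7 ± 118 CPM), fibroblast-like (202 ± 84.1 CPM) and endocardial-like nuclei (175 ± 31.7 CPM). Each of these overlapped its neighbour. By number of transcripts, fibroblast-like nuclei held 34.0% of the UMIs, blood endothelial-like 27.5% and pericyte-like 15.5%. Macrophage-like and cardiomyocyte-like nuclei were lowest, at 22.6 ± 10.1 and 11.9 ± 8.44 CPM, below the 74.1 ± 39.2 CPM of B lymphocyte-like nuclei. In blood endothelial-like nuclei Sparc stood at 158, 129 and 162 CPM in sham and 245, 212 and 298 CPM in saline I/R, without overlap, a rise of 0.64 ± 0.15 (edgeR, adjusted p = 0.00506). It rose as well in endocardial-like nuclei by 1.46 ± 0.23 (adjusted p = 6.13e-04) and in lymphatic endothelial-like nuclei by 1.60 ± 0.44 (adjusted p = 0.0168), the latter becoming 1.06 without saline I/R replicate 3 (adjusted p = 0.0995) and 1.36 without sham replicate 2 (adjusted p = 0.101). The response of fibroblast-like nuclei differed from that of blood endothelial-like nuclei by -1.04 ± 0.15 (edgeR interaction, adjusted p = 1.97e-04) and from that of macrophage-like nuclei by -1.09 ± 0.31 (adjusted p = 0.0195). The macrophage-like difference no longer passed without saline I/R replicate 1 or 3 or sham replicate 1 or 3 (adjusted p of 0.0701 to 0.0858).

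Postn (ENSMUSG00000027750, chromosome 3, 54361109 to 54391037, plus strand, GRCm38) encodes periostin, an integrin ligand widely used to mark activated cardiac fibroblasts. Its fibroblast-like levels were 104, 37.7 and 99.5 CPM in sham, 169.7, 152 and 191 CPM in saline I/R and 166, 191 and 178 CPM in enpatoran I/R. All I/R libraries lay above all sham libraries, and the 2 I/R groups overlapped. The rise after I/R was 0.98 ± 0.28 on the log2 scale (edgeR, adjusted p = 0.0130), and the difference of enpatoran I/R from saline I/R was 0.08 ± 0.27 (adjusted p = 0.863). Without cluster 17 the rise was 0.11 (adjusted p = 0.805). Cluster 17 held 256, 232 and 285 CPM in saline I/R, cluster 10 held 294, 104 and 239 CPM there and 524, 313 and 527 CPM in sham, and cluster 8 had at most 23.0 CPM in any library. In cluster 10, therefore, every sham library lay above every saline I/R library.

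Fibroblast-like nuclei held 42.4% of the Postn UMIs in sham and 68.7% in saline I/R. Pericyte-like nuclei had an overlapping level in saline I/R (165 ± 35.6 against 171 ± 19.6 CPM) and held 13.4% of the UMIs. They stood at 169, 166 and 165 CPM already in sham, and the difference after I/R was -0.17 ± 0.20 (edgeR, adjusted p = 0.575). Smooth muscle-like nuclei followed at 122 ± 100.2 CPM and Schwann-like at 101 ± 54.7 CPM, and other classes had means of 2.41 to 55.0 CPM. Fibroblast-like and smooth muscle-like nuclei differed in their response by 2.24 ± 0.54 (edgeR interaction, adjusted p = 0.0155), with smooth muscle-like levels of 127, 357 and 218 CPM in sham and 62.9, 64.8 and 237 CPM in saline I/R. That difference was 1.98 without saline I/R replicate 2 (adjusted p = 0.0746) and 1.29 without sham replicate 2 (adjusted p = 0.0768). Postn also rose in blood endothelial-like nuclei by 1.87 ± 0.45 (adjusted p = 0.00625) and in macrophage-like nuclei by 2.6 ± 0.73 (adjusted p = 0.0123). The macrophage-like counts were 3 UMIs in sham and 34 in saline I/R, a ratio of CPM of 6.80 with a counting interval of 2.14 to 34.6.

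Spp1 (ENSMUSG00000029304, chromosome 5, 104435118 to 104441050, plus strand, GRCm38) encodes osteopontin, a secreted integrin and CD44 ligand made by macrophages in injured tissue. Sham hearts had little of it: in macrophage-like nuclei it counted 0, 0 and 1 UMIs in sham, 110, 52 and 935 in saline I/R and 380, 496 and 305 in enpatoran I/R. The corresponding levels were 93.9, 49.3 and 734 CPM in saline I/R and 334, 383 and 342 CPM in enpatoran I/R. Saline I/R replicate 3 lay well above the other 2 saline I/R libraries and above all 3 enpatoran I/R libraries. The ratio of saline I/R to sham CPM was 658, with a 95% counting interval of 118 to 26010.4 set by the single sham UMI, and the fitted log2 fold change was 8.87 ± 1.48 (edgeR, adjusted p = 2.82e-04), or 6.86 without that library. Enpatoran I/R differed from saline I/R by 0.26 ± 0.59 (adjusted p = 0.840). Without saline I/R replicate 3 the difference was 2.28 (adjusted p = 1.51e-06), which would be a rise, so 1 library decides this comparison.

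By mean level, macrophage-like nuclei came first in saline I/R with 293 ± 383 CPM and 0.787 UMIs per nucleus, holding 48.6% of the UMIs. The distance from neutrophil-like nuclei rests on saline I/R replicate 3, and in replicate 2 the macrophage-like level was the lower. In replicates 1 and 2 the macrophage-like levels of 93.9 and 49.3 CPM stood beside neutrophil-like levels of 61.0 and 67.6 CPM, against 734 and 117 CPM in replicate 3. Neutrophil-like nuclei had 81.8 ± 30.5 CPM and 17.9% of the UMIs, and fibroblast-like nuclei 16.6 ± 13.2 CPM and 16.0%. All other classes apart from T and NK lymphocyte-like nuclei (106 ± 157 CPM) had means of at most 16.4 CPM, beside 14.9 ± 25.8 CPM in B lymphocyte-like nuclei. In enpatoran I/R the macrophage-like share was 73.5%, and the level did not overlap any other class. Within the class, cluster 12 held 159, 92.3 and 1124 CPM in saline I/R and 839, 912 and 796 CPM in enpatoran I/R, and cluster 11 held 34.4, 10.8 and 107 CPM in saline I/R. In fibroblast-like nuclei Spp1 counted 9, 13 and 3 UMIs in sham, 42, 29 and 145 in saline I/R and 83, 43 and 23 in enpatoran I/R, and rose after I/R by 2.58 ± 0.62 (edgeR, adjusted p = 0.00492). It held 0.0664 UMIs per fibroblast-like nucleus against 0.0337 per B lymphocyte-like nucleus in saline I/R. In enpatoran I/R the order was the other way, with 0.0565 UMIs per fibroblast-like nucleus and 0.133 per B lymphocyte-like nucleus (8 in 60 nuclei, 7 of them from replicate 1). Those 7 lay in 5.88% of the 17 B lymphocyte-like nuclei of replicate 1, which is a single nucleus. Replicate 2 had none in 21 nuclei. The saline I/R value rests on 3 UMIs in 89 nuclei. These counts are too few to set the fibroblast-like Spp1 against the background in either I/R group. Cluster 10 had the highest fibroblast-like levels, 98.1, 70.1 and 176 CPM in saline I/R. The macrophage-like rise exceeded the fibroblast-like one, with a difference of -6.26 ± 1.26 (edgeR interaction, adjusted p = 0.00146).

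Ccn1 (ENSMUSG00000028195, chromosome 3, 145646976 to 145649981, minus strand, GRCm38) encodes the secreted integrin ligand CYR61, an immediate early gene product. Cardiomyocyte-like nuclei held 65.8% of its UMIs in saline I/R, with 2.19 UMIs per nucleus, and fibroblast-like nuclei 7.48%. The cardiomyocyte-like levels were 41.3, 30.8 and 47.0 CPM in sham, 218, 235 and 148 CPM in saline I/R and 64.2, 53.6 and 51.9 CPM in enpatoran I/R. Blood endothelial-like nuclei had 18.1, 18.5 and 25.3 CPM, 245, 183 and 122 CPM and 48.6, 44.3 and 36.2 CPM in that order. In both classes the saline I/R libraries stood clear of both other groups, and each enpatoran library was above each sham library of its class. The rise after I/R was 2.34 ± 0.21 in cardiomyocyte-like (edgeR, adjusted p = 3.97e-05) and 3.07 ± 0.24 in blood endothelial-like nuclei (adjusted p = 2.26e-06). The difference of enpatoran I/R from saline I/R was -1.79 ± 0.21 (adjusted p = 0.00469) and -2.02 ± 0.22 (adjusted p = 0.00101).

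The fibroblast-like Ccn1 levels were lower and moved less: 22.6, 15.3 and 32.8 CPM in sham, 69.3, 53.9 and 44.9 CPM in saline I/R and 28.7, 40.4 and 25.5 CPM in enpatoran I/R, a rise after I/R of 1.16 ± 0.27 (edgeR, adjusted p = 0.00429), or 0.54 without cluster 17 (adjusted p = 0.259). This rise was smaller than the cardiomyocyte-like one by a difference of -1.07 ± 0.23 (edgeR interaction, adjusted p = 0.00540) and than the blood endothelial-like one by -1.88 ± 0.22 (adjusted p = 2.29e-05). By mean level in saline I/R, fibroblast-like nuclei were the ninth of 13 classes, after cardiomyocyte-like (200.4 ± 46.3 CPM), blood endothelial-like (184 ± 61.6 CPM), neutrophil-like (156 ± 53.3 CPM), smooth muscle-like (132 ± 70.0 CPM) and endocardial-like nuclei (96.4 ± 6.42 CPM), among others. Neighbours in this order overlapped down to macrophage-like nuclei at 37.4 ± 13.5 CPM, which stood clear of B lymphocyte-like nuclei. B lymphocyte-like nuclei had 0 UMIs in 89 nuclei, which allows up to 0.0337 per nucleus. Smooth muscle-like nuclei went the other way, from 225, 505 and 259 CPM in sham, the highest of any class, to 209.7, 114 and 73.4 CPM in saline I/R. They fell by 1.47 ± 0.41 on the log2 scale (edgeR, adjusted p = 0.0438), where 6.69% of tested genes were called and 3.84% lower. Without sham replicate 2 the value was -1.0 (adjusted p = 0.177), and the call was lost in 7 of the 9 fits without 1 library (all but saline I/R replicate 1 and enpatoran I/R replicate 2), at adjusted p of 0.0542 to 0.177. The responses of the fibroblast-like and smooth muscle-like classes differed by 2.63 ± 0.47 (edgeR interaction, adjusted p = 0.00164), in a comparison of classes added after the data were seen, as for Postn above and Ccn2 below.

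Part of the blood endothelial-like Ccn1 lay in cluster 27, led by the heat-shock genes Hspa1a and Hspa1b, with 708, 868 and 764 CPM in the saline I/R libraries. Its class name is marginal. The mean log2 fold of markers was 2.26 for blood endothelial and 1.74 for pericyte, near the lead of 0.5 required. With a mitochondrial limit of 20%, at least 1000 genes or doublets kept, the cluster led by these 2 genes took no name. Cluster 27 held 283, 96 and 34 nuclei in saline I/R and 2, 6 and 2 in enpatoran I/R. Without that cluster, Ccn1 in blood endothelial-like nuclei still rose after I/R by 2.47 (edgeR, adjusted p = 6.95e-07) and was lower in enpatoran I/R with a difference of -1.44 (adjusted p = 6.34e-04). In neutrophil-like nuclei, which could not be compared with sham because only 5 were found there, Ccn1 stood at 146, 213 and 108 CPM in saline I/R and 12.7, 35.0 and 0 CPM in enpatoran I/R.

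**Figure D3:**
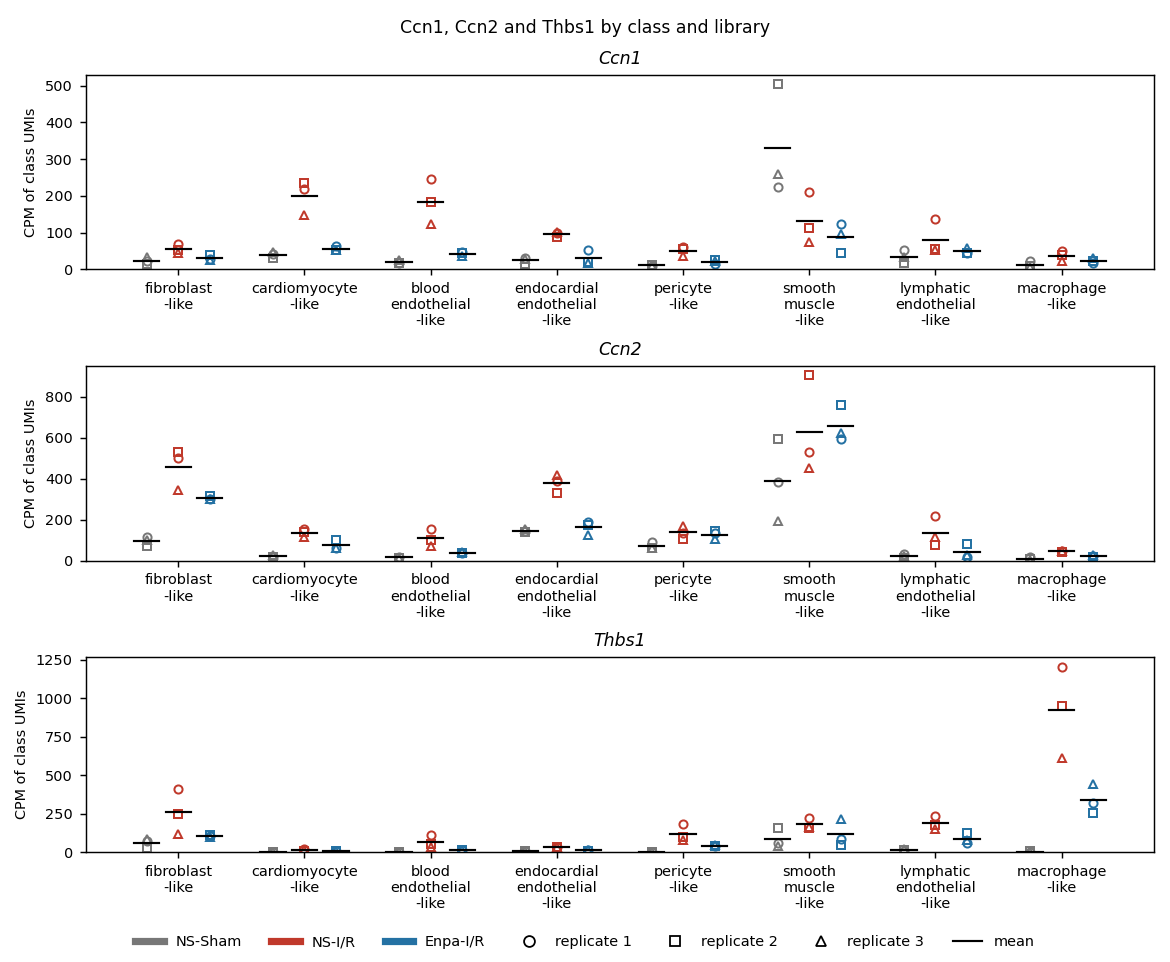
Ccn1, Ccn2 and Thbs1 in CPM, by class and group; each point is 1 library. In cardiomyocyte-like and blood endothelial-like nuclei the 3 saline I/R libraries of Ccn1 sit above all others, smooth muscle-like nuclei lead Ccn2 in sham, and macrophage-like nuclei lead Thbs1 in saline I/R.

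Ccn2 (ENSMUSG00000019997, chromosome 10, 24595442 to 24598683, plus strand, GRCm38) encodes connective tissue growth factor, a profibrotic matricellular protein. In fibroblast-like nuclei its levels were 116, 70.0 and 103 CPM in sham, 500.2, 530.2 and 347 CPM in saline I/R and 299, 313 and 299 CPM in enpatoran I/R. The 3 groups did not overlap. Ccn2 rose after I/R by 2.12 ± 0.20 (edgeR, adjusted p = 8.32e-06), and the enpatoran I/R difference of -0.58 ± 0.19 did not pass (adjusted p = 0.0684). Cluster 17 held 695, 832 and 516 CPM and cluster 10 614, 611 and 428 CPM in saline I/R, and the rise within cluster 8 was 1.31 (edgeR within the cluster, adjusted p = 0.0161).

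Smooth muscle-like nuclei had the highest Ccn2 level in both conditions, at 384, 593 and 193 CPM in sham and 530.3, 905 and 453 CPM in saline I/R, with a log2 difference of 0.56 ± 0.34 that did not pass (edgeR, adjusted p = 0.354). In saline I/R they overlapped fibroblast-like nuclei at 459 ± 98.4 CPM, and endocardial-like nuclei at 380.4 ± 45.4 CPM came next, clear of pericyte-like nuclei at 138 ± 30.5 CPM. Lymphatic-like (136 ± 72.1 CPM), cardiomyocyte-like (136 ± 20.8 CPM) and blood endothelial-like nuclei (111 ± 42.7 CPM) followed, each overlapping its neighbour. By number of UMIs, fibroblast-like nuclei held 42.8% and cardiomyocyte-like nuclei 32.2%, the latter at 1.47 UMIs per nucleus against 1.75 per fibroblast-like nucleus. B lymphocyte-like nuclei had 0.124 UMIs per nucleus. The cardiomyocyte-like levels were 17.8, 17.6 and 29.3 CPM in sham, 154, 139.9 and 113 CPM in saline I/R and 61.1, 101 and 63.7 CPM in enpatoran I/R, a rise of 2.66 ± 0.26 (edgeR, adjusted p = 5.18e-05). Endocardial Ccn2 stood at 143, 139 and 154 CPM, 390.4, 331 and 419.9 CPM and 189, 174 and 126 CPM in the 3 groups. It rose after I/R by 1.33 ± 0.18 (adjusted p = 2.59e-04). The fibroblast-like response differed from the smooth muscle-like one by 1.49 ± 0.37 (edgeR interaction, adjusted p = 0.0181), or 1.27 without saline I/R replicate 1 (adjusted p = 0.0616) and 0.83 without sham replicate 2 (adjusted p = 0.137), while its difference from the cardiomyocyte-like one, -0.45 ± 0.22, did not pass (adjusted p = 0.173).

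Fn1 (ENSMUSG00000026193, chromosome 1, 71585520 to 71653200, minus strand, GRCm38) encodes fibronectin, the glycoprotein that forms the provisional matrix together with fibrin. After I/R its transcripts were mostly in macrophage-like nuclei, which held 62.4% of its UMIs at 4.31 per nucleus, while fibroblast-like nuclei held 11.7% at 0.349. Macrophage-like levels were 118, 14.0 and 41.0 CPM in sham, 1637, 1729 and 1788 CPM in saline I/R and 1275, 1179 and 1071 CPM in enpatoran I/R. Fibroblast-like levels were 42.8, 30.8 and 41.0 CPM, 91.8, 80.5 and 98.7 CPM and 59.0, 74.9 and 53.6 CPM in the same order. Every I/R library exceeded every sham library in both classes, and in both the saline I/R libraries lay above the enpatoran ones. The rise was 4.91 ± 0.42 in macrophage-like (edgeR, adjusted p = 5.09e-07) and 1.11 ± 0.17 in fibroblast-like nuclei (adjusted p = 2.38e-04), and the difference between the 2 was -4.06 ± 0.34 (edgeR interaction, adjusted p = 3.25e-08). Of the 8 genes of the 10 that could be tested in macrophage-like nuclei, 7 rose (all but Sparc), against 34.8% of all genes called and 18% called higher.

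The macrophage-like level of 1718 ± 75.9 CPM in saline I/R did not overlap any other class. The next were T and NK lymphocyte-like (278 ± 230.4 CPM), epicardial-like (226 ± 177 CPM), smooth muscle-like (201 ± 21.1 CPM) and lymphatic-like nuclei (201 ± 54.8 CPM), and fibroblast-like nuclei were the ninth of 13 classes at 90.4 ± 9.17 CPM. Their level overlapped that of B lymphocyte-like nuclei, 83.0 ± 62.8 CPM, although per nucleus it was 0.349 UMIs against 0.157. Cardiomyocyte-like nuclei were lowest at 11.3 ± 2.87 CPM. Cluster 12 carried the macrophage-like Fn1, with 3332, 3485 and 2749.8 CPM in saline I/R and 3157, 2714 and 2697 CPM in enpatoran I/R, against 78.7, 155 and 238 CPM in cluster 11 of saline I/R. Fn1 also rose within cluster 11 by 3.61 (edgeR within the cluster, where 23.1% of genes were called). Among fibroblast-like clusters, cluster 10 had 535, 347 and 510.1 CPM in saline I/R and 147, 102 and 101 CPM in sham, without overlap, and cluster 17 had 60.5, 69.2 and 75.9 CPM. The summed 7 neutrophil markers in macrophage-like nuclei were 69.1 to 94.3 CPM in sham, with 4 of the 7 at 0 in at least 1 library, 397 to 944 CPM in saline I/R and 239 to 249 CPM in enpatoran I/R, and the summed 9 fibroblast markers were 228 to 318, 133 to 209.7 and 211 to 271 CPM. Their part in the macrophage-like results was not tested.

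**Figure D4:**
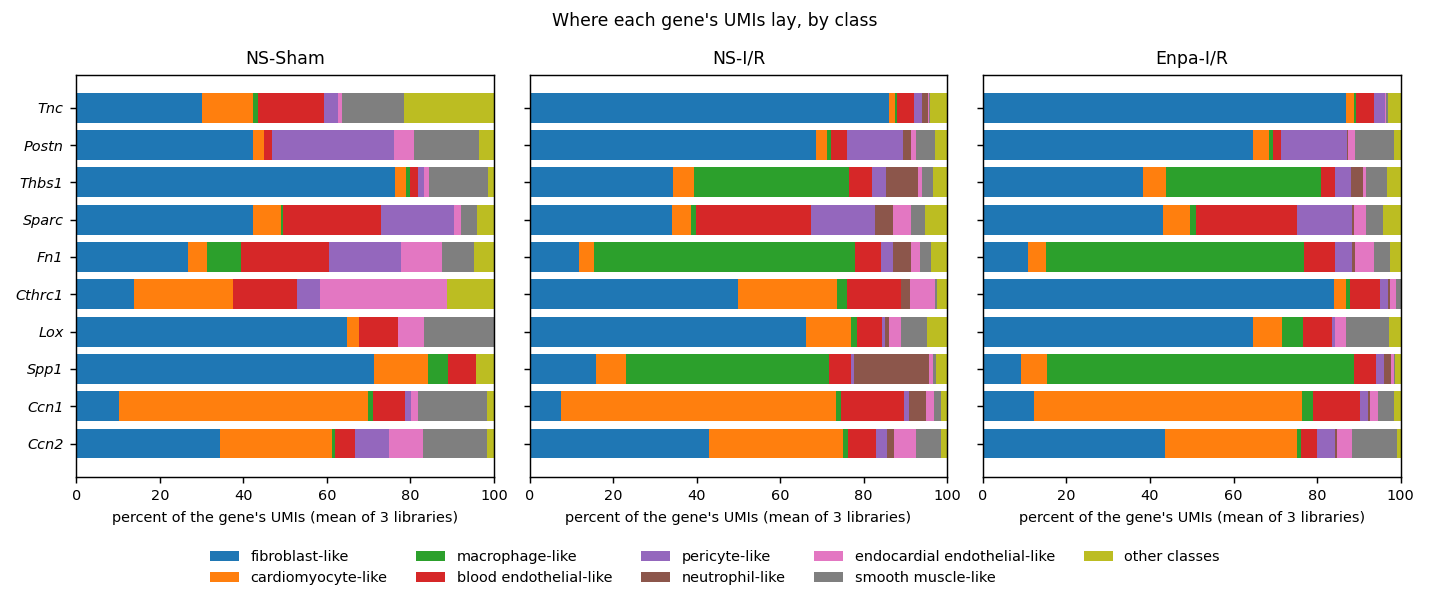
Share of each gene's UMIs held by each class, in percent, as the mean of 3 libraries, with 1 panel per group; each stacked bar adds to 100%. In saline I/R fibroblast-like nuclei hold 86.0% of Tnc, macrophage-like nuclei 62.4% of Fn1, and cardiomyocyte-like nuclei 65.8% of Ccn1.

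Lox (ENSMUSG00000024529, chromosome 18) encodes lysyl oxidase, the copper enzyme that cross-links collagen and elastin. Its fibroblast-like levels were 12.6, 6.46 and 8.21 CPM in sham, 79.8, 69.6 and 36.2 CPM in saline I/R and 31.4, 39.7 and 19.8 CPM in enpatoran I/R. The I/R libraries were all above the sham libraries, and the 2 I/R groups overlapped. Lox rose after I/R by 2.67 ± 0.37 (edgeR, adjusted p = 1.26e-04) and differed in enpatoran I/R by -1.01 ± 0.31 (adjusted p = 0.0600). Unlike Tnc, it was spread over the fibroblast-like clusters of saline I/R, with 48.9, 82.5 and 21.1 CPM in cluster 8, 79.6, 58.6 and 25 CPM in cluster 9 and 94.1, 71.4 and 42.7 CPM in cluster 17. It rose within cluster 8 by 2.37 (edgeR within the cluster, adjusted p = 0.00200) and within cluster 9 by 2.74 (adjusted p = 0.00227).

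Fibroblast-like nuclei held 64.9% of Lox UMIs in sham and 66.1% in saline I/R. By level, epicardial-like nuclei came first in saline I/R at 119 ± 125 CPM, from 5, 36 and 2 UMIs in 50 nuclei, and their libraries ranged so widely that they overlapped fibroblast-like (61.8 ± 22.8 CPM) and smooth muscle-like nuclei (55.2 ± 18.1 CPM). Smooth muscle-like nuclei stood clear of endocardial-like nuclei (19.7 ± 12 CPM), and other classes had means of 0 to 18.6 CPM, with 0 UMIs in the 89 B lymphocyte-like nuclei. In cardiomyocyte-like nuclei Lox went from 0, 1 and 2 UMIs in sham to 53, 73 and 13 in saline I/R and 15, 14 and 7 in enpatoran I/R. The ratio of saline I/R to sham CPM was 49.0, with a counting interval of 16.4 to 241, and the fitted log2 fold change 5.38 ± 0.83 (edgeR, adjusted p = 6.73e-04). That fold exceeded the fibroblast-like one, with a difference of -2.48 ± 0.67 (edgeR interaction, adjusted p = 0.0175; -1.82, adjusted p = 0.0916, without sham replicate 1 and -2.42, adjusted p = 0.0810, without sham replicate 2), while the cardiomyocyte-like level in saline I/R, 4.24 ± 2.49 CPM, was far below the fibroblast-like level.

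Cthrc1 (ENSMUSG00000054196, chromosome 15, 39076932 to 39087121, plus strand, GRCm38) encodes collagen triple helix repeat containing 1, a secreted protein that marks matrix-producing scar fibroblasts. It was scarce at 24 h: fibroblast-like nuclei counted 2, 2 and 0 UMIs in sham, 6, 6 and 57 in saline I/R and 39, 26 and 35 in enpatoran I/R. The level was 1.61, 1.43 and 12.4 CPM in saline I/R and 9.02, 8.01 and 10.4 CPM in enpatoran I/R. Saline I/R replicate 3 was above every enpatoran I/R library, and the other 2 saline I/R libraries were below them. The rise after I/R was 3.48 ± 1.02 (edgeR, adjusted p = 0.0152), but 1.71 (adjusted p = 0.0531) without saline I/R replicate 3 and 3.38 (adjusted p = 0.0734) without sham replicate 2. Enpatoran I/R differed from saline I/R by 0.81 ± 0.62 (adjusted p = 0.398), and by 2.58 without saline I/R replicate 3 (adjusted p = 3.06e-04). The Cthrc1 UMIs of cluster 17 were 2, 2 and 48 in saline I/R and 33, 23 and 29 in enpatoran I/R, so most fibroblast-like counts in 4 of these 6 libraries lay there. Fibroblast-like nuclei held 49.9% of all Cthrc1 UMIs in saline I/R and 84.0% in enpatoran I/R, and in saline I/R every other class had a mean of at most 4.00 CPM, overlapping fibroblast-like nuclei.

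The comparison of enpatoran I/R with saline I/R addresses whether the enpatoran treatment moved these genes in injured hearts. Every call among the 10 genes, in any class, was in the lower direction. Blood endothelial-like and cardiomyocyte-like nuclei had 4 called genes each: Ccn1, Ccn2, Thbs1 and Tnc in the former, against 7.95% of all genes called and 4.35% called lower, and Ccn1, Ccn2, Lox and Thbs1 in the latter, against 18.9% and 11.3%. Pericyte-like nuclei had 2 (Ccn1 and Thbs1, background 5.91% and 3%), neutrophil-like nuclei 2 (Ccn1 and Tnc, 1.87% and 0.701%), and macrophage-like (Thbs1, 6.28% and 3.41%), endocardial-like (Ccn2, 0.31% and 0.168%) and fibroblast-like nuclei (Tnc, 9.55% and 5.86%) 1 each. In lymphatic-like nuclei 0 of 6 and in smooth muscle-like nuclei 0 of 8 tested genes were called by edgeR, 4 and 0 of them at an unadjusted p under 0.05, and by DESeq2 0 in both. Over all genes tested, 1.02% were called in lymphatic-like nuclei, 0.329% lower, and 0% in smooth muscle-like nuclei. Markers of other cell types were lower alongside in some of these classes: the summed level of the 7 neutrophil markers was 106 to 262 CPM in saline I/R and 47.0 to 69.8 CPM in enpatoran I/R in blood endothelial-like nuclei, and 103 to 260 and 40.1 to 88.0 CPM in pericyte-like nuclei. In cardiomyocyte-like nuclei it was 27.6 to 82.8 and 17.3 to 32.8 CPM, which overlap, and the summed level of the 9 cardiomyocyte markers was 39815 to 55387 CPM in saline I/R and 60909 to 65358 CPM in enpatoran I/R. Their part in these calls was not tested. Over all nuclei summed, Tnc, Thbs1, Lox, Ccn1 and Ccn2 were lower (5 of 10), against 16.5% of all genes called and 8.74% called lower.

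Thbs1 and Ccn1 were called in 4 classes each. For Thbs1 the differences of enpatoran I/R from saline I/R were -2.22 ± 0.39 in blood endothelial-like (edgeR, adjusted p = 0.00728), -1.47 ± 0.25 in macrophage-like (adjusted p = 0.00326), -1.40 ± 0.28 in pericyte-like (adjusted p = 0.0116) and -1.39 ± 0.31 in cardiomyocyte-like nuclei (adjusted p = 0.0190). The fibroblast-like value, -1.32 ± 0.42, was of similar size and did not pass (adjusted p = 0.0649). Within macrophage-like cluster 11 it was -1.63 (edgeR within the cluster, adjusted p = 0.0429, background 1.76%), and within cluster 12, -1.10 (adjusted p = 0.0928). Ccn2 was lower in endocardial-like nuclei by a difference of -1.18 ± 0.18 (adjusted p = 0.00731) and in blood endothelial-like nuclei by -1.44 ± 0.23 (adjusted p = 0.00472). Tnc differed by -1.27 ± 0.29 in blood endothelial-like (adjusted p = 0.0231) and -2.37 ± 0.44 in neutrophil-like nuclei (adjusted p = 0.0225), and Ccn1 by -1.23 ± 0.29 in pericyte-like (adjusted p = 0.0243) and -2.81 ± 0.51 in neutrophil-like nuclei (adjusted p = 0.0196). In cardiomyocyte-like nuclei Lox differed by -1.93 ± 0.57 (adjusted p = 0.0419) and Ccn2 by -0.82 ± 0.24 (adjusted p = 0.0390). Whether the enpatoran difference itself varied between classes was not tested.

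The clusters that made up the cardiomyocyte-like class also differed between the I/R groups, since cluster 21 held 64.2% of it in saline I/R and 35.9% in enpatoran I/R, cluster 20 21.6% and 35.5%, and cluster 2 0.375% and 8.59%. Within clusters 20 and 21, fitted on the 6 I/R libraries, none of the 4 genes was called by edgeR, where 0.019% and 0.00805% of all genes were. In cluster 21 Ccn1 stood at 278, 294 and 198 CPM in saline I/R and 95.2, 102 and 79.1 CPM in enpatoran I/R, without overlap, a difference of -1.47 ± 0.19 (edgeR within the cluster, adjusted p = 0.0519, unadjusted p = 4.33e-05). In cluster 20 it was -0.94 ± 0.22 (adjusted p = 0.0984, unadjusted p = 0.00221). Thbs1 differed by -1.05 ± 0.36 in cluster 21 (adjusted p = 0.115) and -1.65 ± 0.34 in cluster 20 (adjusted p = 0.0834), both at an unadjusted p under 0.05. Ccn2 differed by -0.29 ± 0.27 in cluster 21 (adjusted p = 0.507), where its groups overlapped, and by -1.23 ± 0.33 in cluster 20 (adjusted p = 0.109, unadjusted p = 0.00443). Lox, tested in cluster 21 only, differed by -2.23 ± 0.69 (adjusted p = 0.0985, unadjusted p = 0.0114). The blood endothelial-like class changed its clusters too. Between saline I/R and enpatoran I/R, cluster 27 held 10.7% and 0.262% of it, cluster 7 24.4% and 10.4%, and cluster 3 5.43% and 16.9%. No values within these clusters are given for the enpatoran calls of that class, so those describe the class as a whole.

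Several of the enpatoran calls, over all classes, were lost when 1 library was left out. That of Thbs1 was lost in blood endothelial-like nuclei without enpatoran I/R replicate 1 (-2.07, adjusted p = 0.0545), in pericyte-like nuclei without enpatoran I/R replicate 1 or 3 or saline I/R replicate 1 (adjusted p of 0.0566 to 0.0709), and in cardiomyocyte-like nuclei without any 1 enpatoran I/R replicate or saline I/R replicate 1 (adjusted p of 0.0591 to 0.0797). That of Tnc was lost in blood endothelial-like nuclei without enpatoran I/R replicate 1 (-1.05, adjusted p = 0.105) or 3 (-1.27, adjusted p = 0.0898), and in neutrophil-like nuclei without any 1 enpatoran I/R replicate or saline I/R replicate 1 or 2 (adjusted p of 0.0509 to 0.134). That of Ccn1 was lost in pericyte-like nuclei without any 1 enpatoran I/R replicate or saline I/R replicate 1 or 2 (adjusted p of 0.0562 to 0.123), and in neutrophil-like nuclei without any 1 enpatoran I/R replicate (adjusted p of 0.0630 to 0.140). Ccn2 in endocardial-like nuclei no longer passed without enpatoran I/R replicate 3 (-1.05, adjusted p = 0.0611). In cardiomyocyte-like nuclei the Lox call held only without saline I/R replicate 3 (adjusted p of 0.0562 to 0.152 in the other 8 fits), and the Ccn2 call only without saline I/R replicate 3 or sham replicate 3 (0.0508 to 0.137 in the other 7). The calls of Ccn1 and Ccn2 in blood endothelial-like nuclei, of Ccn1 in cardiomyocyte-like nuclei and of Thbs1 in macrophage-like nuclei held in all 9 fits. Over all nuclei summed, the Lox call held only without saline I/R replicate 3, that of Ccn2 was lost without enpatoran I/R replicate 1 or 3 or saline I/R replicate 1 or 2, and that of Thbs1 without enpatoran I/R replicate 1 or 3.

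In fibroblast-like nuclei the differences that missed the threshold were -1.01 ± 0.31 for Lox (edgeR, adjusted p = 0.0600), -0.82 ± 0.26 for Ccn1 (adjusted p = 0.0648) and -0.52 ± 0.16 for Fn1 (adjusted p = 0.0600), as well as those of Thbs1, Ccn2 and Sparc given above. Spp1 differed by -0.31 ± 0.48 (adjusted p = 0.693). The median over the 10 genes was -0.55, against 0.01 over all genes. Without saline I/R replicate 3, 8 of the 10 genes were called in these nuclei: Tnc, Thbs1, Lox, Ccn1, Ccn2 and Fn1 lower, and Sparc and Cthrc1 higher. Over all nuclei summed and all genes, leaving out that library raised the calls from 1401 higher and 1579 lower to 4131 higher and 3934 lower. The share of all genes called in fibroblast-like nuclei without that library is not given here. The 8 calls therefore cannot be read as particular to the 10 genes.

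**Figure D5:**
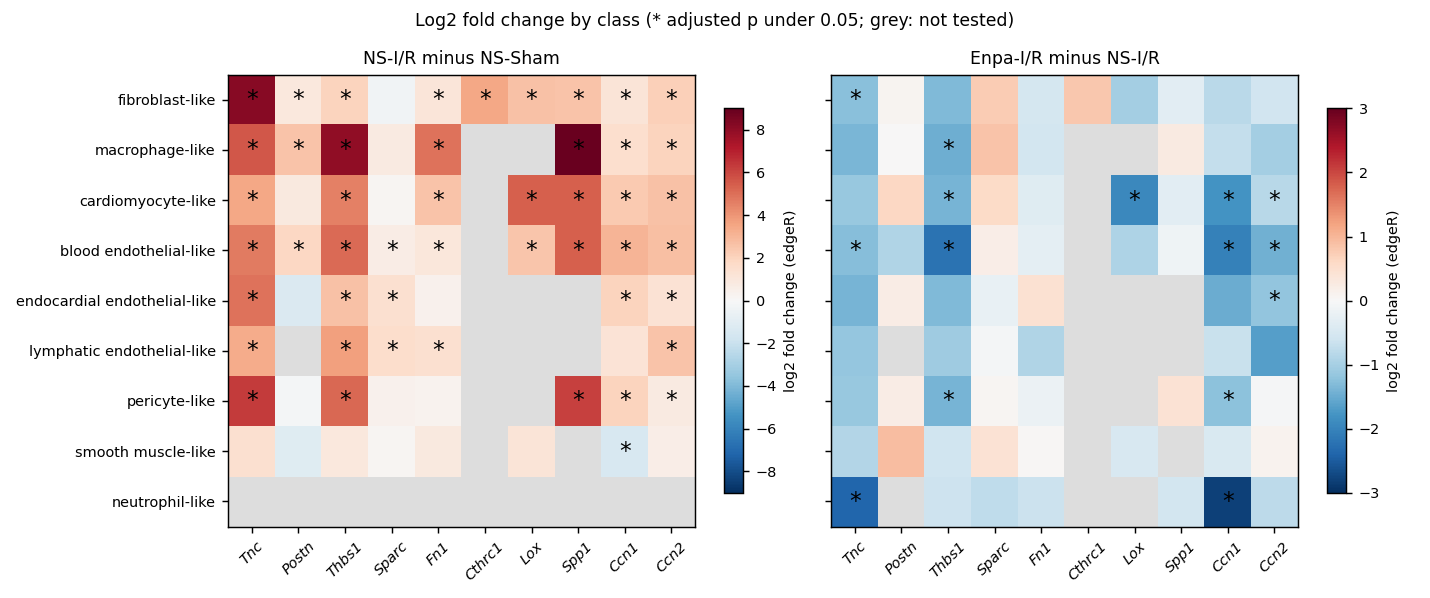
Log2 fold changes of the 10 genes by class for saline I/R minus sham (left, colours up to 9 either way) and enpatoran I/R minus saline I/R (right, colours up to 3 either way); an asterisk marks an edgeR adjusted p under 0.05 and grey a gene not tested in that class. Red fills most of the left panel, up to 8.87 for Spp1 in macrophage-like nuclei, and every marked cell of the right panel is in the lower direction.

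Across classes, the count of the 10 genes that rose after I/R was 9 of 9 tested in blood endothelial-like nuclei (34.6% of all genes called, 18.1% higher), 7 of 9 in cardiomyocyte-like (45.3%, 23.7%), 7 of 8 in macrophage-like, 5 of 8 in pericyte-like (24%, 12.2%), 5 of 7 in endocardial-like (10.7%, 5.41%) and 5 of 6 in lymphatic-like nuclei (13.9%, 6.14%). Smooth muscle-like nuclei had no gene of the 8 tested called higher by edgeR (2.85% of all genes were), with 3 of them (Fn1, Tnc and Lox) positive at an unadjusted p under 0.05. The genes tested passed a filter on low counts that a gene high in 1 group can pass through that group, so these counts describe the genes tested and not all 10. Neutrophil markers were higher alongside. Their summed level in blood endothelial-like nuclei ranged over 0.463 to 2.64 CPM in sham, where up to 6 of the 7 were at 0 in a library, and 106 to 262 CPM in saline I/R. The ranges were 0.713 to 2.69 (up to 3 at 0) and 27.6 to 82.8 CPM in cardiomyocyte-like nuclei, and 1.19 to 1.65 (up to 6 at 0) and 103 to 260 CPM in pericyte-like nuclei. The summed level of 9 macrophage markers was 31.6 to 74.1 and 103 to 147 CPM in blood endothelial-like, 14.9 to 16.4 and 23.8 to 33.3 CPM in cardiomyocyte-like, and 33.1 to 59.1 and 87.8 to 127 CPM in pericyte-like nuclei. Some of the genes counted had a lower mean CPM in saline I/R than B lymphocyte-like nuclei, as given above. These were Thbs1 in blood endothelial-like nuclei, and Thbs1, Tnc and Fn1 in cardiomyocyte-like nuclei. That background rose as well, for Thbs1 from 0 UMIs in 105 B lymphocyte-like nuclei of sham to 12 in 89 of saline I/R. The part of these markers and of that background in the counts was not tested. Over all nuclei summed, 9 of 10 rose (47.8% of all genes called, 23.9% higher), and Sparc, with a log2 difference of 0.28 (edgeR, adjusted p = 0.284), did not. The effect of I/R in fibroblast-like nuclei differed from that in macrophage-like nuclei for 4 of the 10 genes (13.8% of all genes), in blood endothelial-like nuclei for 4 (15.2%), in cardiomyocyte-like nuclei for 5 (20.6%) and in smooth muscle-like nuclei for 4 (4.88%). The whole-sample values also move with the makeup of the nuclei: neutrophil-like nuclei numbered 5, 1400 and 333 in sham, saline I/R and enpatoran I/R.

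The share of nuclei with at least 1 UMI was compared after thinning each nucleus to 1000 UMIs, in the order sham, saline I/R and enpatoran I/R (mean ± SD, n = 3 libraries). In fibroblast-like nuclei, of which 152, 177 and 119 shallower ones were left out, Thbs1 was found in 2.86% ± 1.21, 14.6% ± 7.54 and 6.93% ± 1.12. The saline I/R libraries lay above both other groups for Thbs1, as they did for Ccn2 at 6.03% ± 1.18, 22.4% ± 2.17 and 16.1% ± 0.358. Sparc, at 18.5% ± 1.92, 15.4% ± 6.77 and 25.3% ± 2.06, overlapped between sham and saline I/R. Postn stood at 3.02% ± 0.802, 6.56% ± 1.82 and 7.43% ± 1.08, and Cthrc1 was found in 1 of 2603, 20 of 3075 and 16 of 2517 nuclei. In macrophage-like nuclei, of which 103, 188 and 108 were left out, Fn1 was found in 2.20% ± 1.21, 40.1% ± 1.96 and 28.1% ± 1.63. The macrophage-like shares of Thbs1 were 0.268% ± 0.464, 29.5% ± 4.46 and 15.2% ± 3.74, and for both genes the 3 groups did not overlap. The clusters that filled this class differed between the groups, as given above. Spp1, at 0.251% ± 0.434, 10.7% ± 11.8 and 13.3% ± 1.25, ranged over 3.31% to 24.3% in the saline I/R libraries, a range that holds all 3 enpatoran I/R libraries. Unthinned, the saline I/R means in macrophage-like nuclei were 45.6% for Fn1, 36.9% for Thbs1 and 14.9% for Spp1. B lymphocyte-like nuclei, a class that should lack these genes, thinned to the same depth, had Thbs1 in 3 of 71, Fn1 in 5 of 71 and Spp1 in 1 of 71 nuclei of saline I/R. With 3 against 3 libraries the exact two-sided permutation test cannot go below p = 0.1.

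Other matricellular and matrix assembly genes did not move in 1 direction. Of a list of 32, 31 could be tested in fibroblast-like nuclei, where 10 rose after I/R, 10 fell and 11 did not pass, with a median log2 fold change of 0.17. Of all genes tested there, 46.5% were called and 23.3% rose. The list and the next one were chosen with earlier results of these data known. The 4 largest changes were a rise of 3.62 ± 0.44 for Ccn4 (edgeR, adjusted p = 5.60e-05), a member of the same family as Ccn1 and Ccn2, and of 1.99 ± 0.32 for Ltbp2, which encodes a microfibril-associated protein (adjusted p = 3.81e-04), and falls with differences of -1.90 ± 0.24 for Fbln5, an organizer of elastic fibres (adjusted p = 6.49e-05), and -1.68 ± 0.14 for Sparcl1, the closest relative of Sparc (adjusted p = 4.74e-06). In enpatoran I/R against saline I/R, 3 were higher, 3 lower and 25 not called, beside 9.55% of all genes called and 5.86% lower. The largest differences were -1.76 ± 0.50 for Ccn3 (adjusted p = 0.0465), -1.58 ± 0.24 for Ccn5 (adjusted p = 0.0120), -1.24 ± 0.34 for the thrombospondin gene Thbs4 (adjusted p = 0.0403) and 0.86 ± 0.22 for Lum, which encodes the collagen-binding proteoglycan lumican (adjusted p = 0.0328).

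Of 14 receptors for these proteins, 13 could be tested in fibroblast-like nuclei: 7 rose after I/R, 4 fell and 2 did not pass, beside the same 46.5% and 23.3% of all genes. Sdc4, which encodes the fibronectin co-receptor syndecan-4, rose by 3.01 ± 0.35 (edgeR, adjusted p = 3.86e-05). The fibronectin receptor subunit Itga5 rose by 2.50 ± 0.12 (adjusted p = 3.03e-07), and Cd44, the hyaluronan receptor that also binds osteopontin, by 2.50 ± 0.19 (adjusted p = 1.94e-06). In enpatoran I/R, Sdc4 and Itga5 were lower by differences of -1.16 ± 0.30 (adjusted p = 0.0337) and -0.41 ± 0.11 (adjusted p = 0.0422), Itgb5, an integrin subunit that binds vitronectin, was higher by 0.46 ± 0.13 (adjusted p = 0.0419), and 10 were not called (background 9.55%).

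The genes whose levels ran most like each of the 10 were sought by Pearson's correlation of log2 CPM over 72 sums of nuclei by class and library, among 12433 genes. These sums share libraries and classes, so r is a description without a test. Tnc was closest to AI506816 (r = 0.83), Ddx21 (0.82) and Aen (0.81), and Lox to Pmepa1 (0.82), Ptgis (0.80) and Gpr39 (0.80). Spp1 ran with Arg1 (0.85), Chil3 (0.83) and Slfn4 (0.83), of which Arg1 also led macrophage-like cluster 12. Thbs1 was closest to Sdc4 (0.81), Selenos (0.80) and Junb (0.79), and Fn1 to Ptpn1, Fam129b and Btg1 (0.81 each). Sparc ran with Igfbp7 (0.91), Prickle2 (0.90) and Ebf1 (0.90). Ccn1 was closest to Ppp1cb (0.80), Hspb1 (0.77) and Hbegf (0.76), and the scarce Cthrc1 to Gdf6 (0.61), Smarcc1 (0.59) and Scfd1 (0.56). None of the 10 genes was among the 3 nearest of another.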

How the data were processed

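Single-nucleus RNA-seq (10x Chromium 3' v3.1) was made from frozen mouse hearts, 3 libraries per group. The authors deposited filtered matrices of raw UMI counts per gene and barcode, written by Cell Ranger 8.0.0 per the file headers, whereas the submitters' processing notes name Cell Ranger 6.1.1 and Seurat, and the builds GRCh38 and GRCm39. Since the gene set was 99.6% that of GENCODE M21 (32158 of 32285 identifiers), gene positions are from that annotation of GRCm38; promoters are from RefSeq.

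Nuclei with at least 500 genes and at most 5% mitochondrial counts were kept, which removed 11.8% to 23.7% of barcodes on the mitochondrial limit. Because Scrublet's own threshold called 0 to 308 barcodes per library, the highest-scoring 0.8% per 1000 barcodes were removed as doublets (133 to 538 per library). At most 20 barcodes were shared between any 2 libraries. Kept nuclei had median totals of 2365 to 3263.5 UMIs. Clusters (scanpy 1.11.5, 2000 variable genes without the 10 genes and the gene lists, 30 components, 15 neighbours, Leiden resolution 1) took a class name from at least 3 markers found in at least 5% of nuclei at 2-fold above the others with 10 CPM added, with a lead of 0.5 on the log2 scale. The thresholds for naming were set with the data in view.

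Counts were summed per class and library (at least 25 nuclei) and tested with edgeR 4.0.16 in R 4.3.3 (quasi-likelihood, TMM factors, filterByExpr, 9 libraries in 1 fit, Benjamini-Hochberg adjustment within class and contrast, threshold 0.05), after a test on simulated counts. Errors are SE for log2 fold changes and SD over libraries for levels. P-values rest on the spread between libraries within groups, estimated over all libraries of a fit. In fits of 9 libraries the third group thus counts toward each contrast. Differences between classes were tested as an interaction with the library as a block. DESeq2 1.42.0, other filters and scalings, clusters left out and each library left out were alternatives. Intervals (95%) and the floor of 3 counts cover counting error only. Replicate numbers came from the labels, and same-numbered libraries did not deviate together.

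The 10 genes and the lists were chosen with earlier results of these data known. All 10 genes were measured in every class, and the text gives those its results turn on. Classes were ordered by level where every library of the group had at least 10 nuclei, which left 13 in saline I/R, without adipocyte-like nuclei (34 in all there). Of the lists, up to 4 called matrix genes and 3 called receptors with the largest fold are named per contrast, and for each gene the 3 with the highest r, among those of at least 10 CPM in at least 3 sums and leaving out names of predicted genes (Gm numbers and names ending in Rik). The nearest genes of Postn and Ccn2 are not reported here.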

Additional observations from a re-analysis of the deposited data

Results flagged for a closer look

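The effect of I/R differed between fibroblast-like nuclei and another class for 17 pairs of gene and class, by the edgeR interaction test with the library as a block and Benjamini-Hochberg adjustment over all genes of each pair of classes. Values are the log2 fold change in fibroblast-like nuclei minus that in the other class.

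Against macrophage-like nuclei, 4 of the 10 genes differed, where 13.8% of all genes did: Spp1 by -6.26 (adjusted p = 0.00146), Thbs1 by -6.04 (adjusted p = 1.45e-08), Fn1 by -4.06 (adjusted p = 3.25e-08) and Sparc by -1.09 (adjusted p = 0.0195). Against blood endothelial-like nuclei (15.2% of all genes), Tnc differed by 3.48 (adjusted p = 0.00802), Thbs1 by -2.95 (adjusted p = 5.63e-05), Ccn1 by -1.88 (adjusted p = 2.29e-05) and Sparc by -1.04 (adjusted p = 1.97e-04). Against cardiomyocyte-like nuclei (20.6% of all genes), Tnc differed by 4.90 (adjusted p = 0.00107), Lox by -2.48 (adjusted p = 0.0175), Thbs1 by -2.45 (adjusted p = 0.00242), Fn1 by -1.28 (adjusted p = 0.00220) and Ccn1 by -1.07 (adjusted p = 0.00540). Without NS-Sham replicate 2 the Tnc difference was 1.99 against cardiomyocyte-like nuclei (adjusted p = 0.494) and 2.38 against blood endothelial-like nuclei (adjusted p = 0.280).

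Against smooth muscle-like nuclei (4.88% of all genes), a class added after the data were seen, Tnc differed by 6.68 (adjusted p = 2.15e-05), Ccn1 by 2.63 (adjusted p = 0.00164), Postn by 2.24 (adjusted p = 0.0155) and Ccn2 by 1.49 (adjusted p = 0.0181). Tnc was thus the gene called as rising more in fibroblast-like nuclei than in 3 other classes. Its calls against cardiomyocyte-like and blood endothelial-like nuclei were lost without NS-Sham replicate 2, as given above. Against macrophage-like nuclei its difference was 2.25 ± 2.65 (edgeR interaction, adjusted p = 0.644). Thbs1 was the gene whose rise in fibroblast-like nuclei was the smaller in 3 comparisons. Other pairs also lost their call when certain single libraries were left out, as given in the results of each gene. They were Sparc against macrophage-like, Lox against cardiomyocyte-like, and Postn and Ccn2 against smooth muscle-like nuclei. No group had more than 3 libraries, so single libraries were not screened as outliers.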

How the results depend on the processing

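Limits come first. Each group had 3 hearts, the enpatoran contrast turned on NS-I/R replicate 3 more than on any other library, and counts near 0 in sham give fitted folds that depend on the model. Most results kept direction and side of the threshold: of the single-gene values, 822 of the alternatives without a left-out library did so, 15 passed newly and 23 no longer passed, and with 1 library left out 827 did so, 10 passed newly and 95 no longer passed.

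The number of the 10 genes called between Enpa-I/R and NS-I/R (edgeR) was 5 in all nuclei and 3 with only the 6 libraries of the contrast. With these 6 libraries it went from 4 to 2 in cardiomyocyte-like, from 1 to 0 in fibroblast-like, from 1 to 3 in macrophage-like and from 2 to 1 in pericyte-like nuclei. Without a low-count filter it was 7 in fibroblast-like, 4 in macrophage-like, 2 in endocardial-like and 2 in lymphatic-like nuclei. DESeq2's Wald test gave 6 in fibroblast-like and 2 in endocardial-like nuclei. A mitochondrial limit of 20% gave 3 in fibroblast-like and 1 in lymphatic-like nuclei, keeping doublets gave 2 in macrophage-like nuclei, and at least 1000 genes per nucleus gave 1 in neutrophil-like and 1 in pericyte-like nuclei. Leaving out cluster 17 gave 0 in fibroblast-like nuclei. The call of Ccn1 in smooth muscle-like nuclei after I/R (1 gene) became 0 with the 6 libraries, Leiden resolution 2, 1000 genes or the 20% limit, 2 with doublets kept and 6 without the filter. The share of all genes called under each alternative setting is not given, here or below. These counts therefore show dependence on the setting and are no result about the 10 genes.

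Replicate numbers did not pair the libraries: deviations from the group means of same-numbered libraries correlated between -0.14 and 0.05. With the replicate block, 84 of 88 gene results kept their call, and 2 were lost: Cthrc1 after I/R in all nuclei (1.78, adjusted p = 0.0527) and Ccn2 between the I/R groups in cardiomyocyte-like nuclei (-0.84, adjusted p = 0.0620). The enpatoran count then became 3 in fibroblast-like (Sparc 0.82, adjusted p = 0.0421, and Lox -0.99, adjusted p = 0.0258, besides Tnc), 2 in endocardial-like and 2 in macrophage-like nuclei.

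Leaving out 1 library in turn moved the enpatoran count between 2 and 8 in all nuclei, 2 and 6 in blood endothelial-like, 1 and 5 in cardiomyocyte-like, 0 and 8 in fibroblast-like, 1 and 5 in macrophage-like, 0 and 2 in endocardial-like, 0 and 2 in lymphatic-like, 0 and 4 in neutrophil-like, 0 and 3 in pericyte-like and 0 and 1 in smooth muscle-like nuclei. In all of these the highest count was found without NS-I/R replicate 3, and in endocardial-like nuclei also without Enpa-I/R replicate 1. The I/R count moved between 3 and 5 in pericyte-like and 0 and 1 in smooth muscle-like nuclei, and the genes with an interaction between 3 and 5 against cardiomyocyte-like and 2 and 4 against smooth muscle-like nuclei. 3 enpatoran differences changed sign: Postn in fibroblast-like nuclei from 0.08 to -0.0011 (range to 0.16), Spp1 there from -0.31 to 0.57 (range from -0.71), and Spp1 in macrophage-like nuclei from 0.26 to -0.15 and -0.24 without NS-I/R replicates 1 and 2 (range to 2.28). The thinned share of macrophage-like nuclei with a Spp1 UMI differed by 2.64 percentage points, or -1.05 to 9.45 with 1 library left out (-0.48 without NS-I/R replicate 1).

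The share of a gene's UMIs held by its leading class in NS-I/R moved by more than 1 SD in few settings. With doublets kept, fibroblast-like nuclei held 78.3% of Tnc, 65.2% of Postn and 40.6% of Ccn2. With the 20% limit, macrophage-like nuclei held 43.7% of Thbs1 and 67.3% of Fn1, and fibroblast-like nuclei 39.7% of Ccn2. The cause of these shifts was not tested.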
